A study of Homo sapiens with 16 samples.

Results

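The transcripts of 10 mitotic kinesin genes, KIF11, KIFC1, CENPE, KIF18A, KIF2C, KIF4A, KIF20A, KIF23, KIF14 and KIF20B, were followed across 16 RNA sequencing libraries of MDA-MB-231 cells, an established human line of triple-negative breast cancer. The genes were chosen by name, with earlier results of these data known. Counts of members or listed genes beside shares of all tested genes are thus descriptions, not independent support. The members' symbols stood on 12 of the 37864 gene identifiers in the count table. Of these, 10 identifiers, 1 per gene, had enough counts to be tested, among 17991 tested in all. The cells had received afatinib together with paclitaxel (the combination), afatinib alone, paclitaxel alone or the solvent DMSO, with 4 libraries per group. Afatinib irreversibly inhibits kinases of the EGFR family. Paclitaxel binds β-tubulin and stabilises microtubules. All libraries come from a single cell line, and dose and exposure time are not given in the sources used here. Separate cultures are not stated for the replicates, and all p-values thus refer to variation among these libraries, which may be technical.

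Kinesins are motor proteins that use ATP to walk along microtubules or to take their ends apart. The mitotic members push spindle poles apart, hold and align chromosomes, and build the midzone and midbody through which a dividing cell separates. Their genes are transcribed mostly in late cell cycle phases, so in bulk RNA a larger share of cells in those phases and more RNA per cell cannot be told apart.

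Library totals ranged from 28366004 counts (paclitaxel replicate 4) to 48108577 counts (combination replicate 4). Levels are given as CPM, counts scaled to a common library size with TMM factors, which correct for differences in RNA composition. They are relative levels and do not give amounts per cell. In every group the labelled RNA concentration was higher in replicates 1 and 2 than in replicates 3 and 4, and this split into 2 sets is a term in the fits unless stated otherwise. The mean concentration in replicates 1 and 2 was 623.3 ng/µl in the combination, 1002 ng/µl with afatinib, 387.6 ng/µl with paclitaxel and 1171 ng/µl in DMSO. In replicates 3 and 4 it was 142.8, 184.3, 252.4 and 311 ng/µl in the same groups. The part of concentration in the differences below is addressed only by the alternatives given beside them. The markers of the line were present, with VIM at 844 to 1213 CPM over all libraries, CD44 at 850.0 to 2142 CPM and EGFR at 420.2 to 1051 CPM. Of the genes listed as low in this line, ESR1 stood at 0.156 to 0.491 CPM and CDH1 at 0.0455 to 0.407 CPM, while PGR was at 3.80 to 6.44 CPM and EPCAM at 6.60 to 13.7 CPM. Of the markers of other cell types, CD3E was at 0 in 15 of 16 libraries, PTPRC reached 0.111 CPM, VWF 0.720 CPM and PECAM1 1.92 CPM, and the fibroblast collagen gene COL1A1 stood at 9.56 to 22.8 CPM. The part of these genes in the results was not tested.

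Every member stood at a higher relative level in combination-treated than in DMSO-treated cells. All 10 genes rose, by 1.296-fold (KIF11) to 2.57-fold (KIF20A), with a median log2 fold change of 0.72 against −0.0047 over all tested genes. Of all tested genes 38.0% passed in this comparison, 18.5% as higher and 19.5% as lower, at an adjusted p under 0.05 (edgeR quasi-likelihood test, Benjamini-Hochberg over 17991 genes). For all 10 members the 4 combination libraries lay above the 4 DMSO libraries without overlap. The share of all tested genes without overlap was not computed, so this count is a description only. The members share the same libraries, so the count of 10 is not a count of independent observations.

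**Figure D1:**
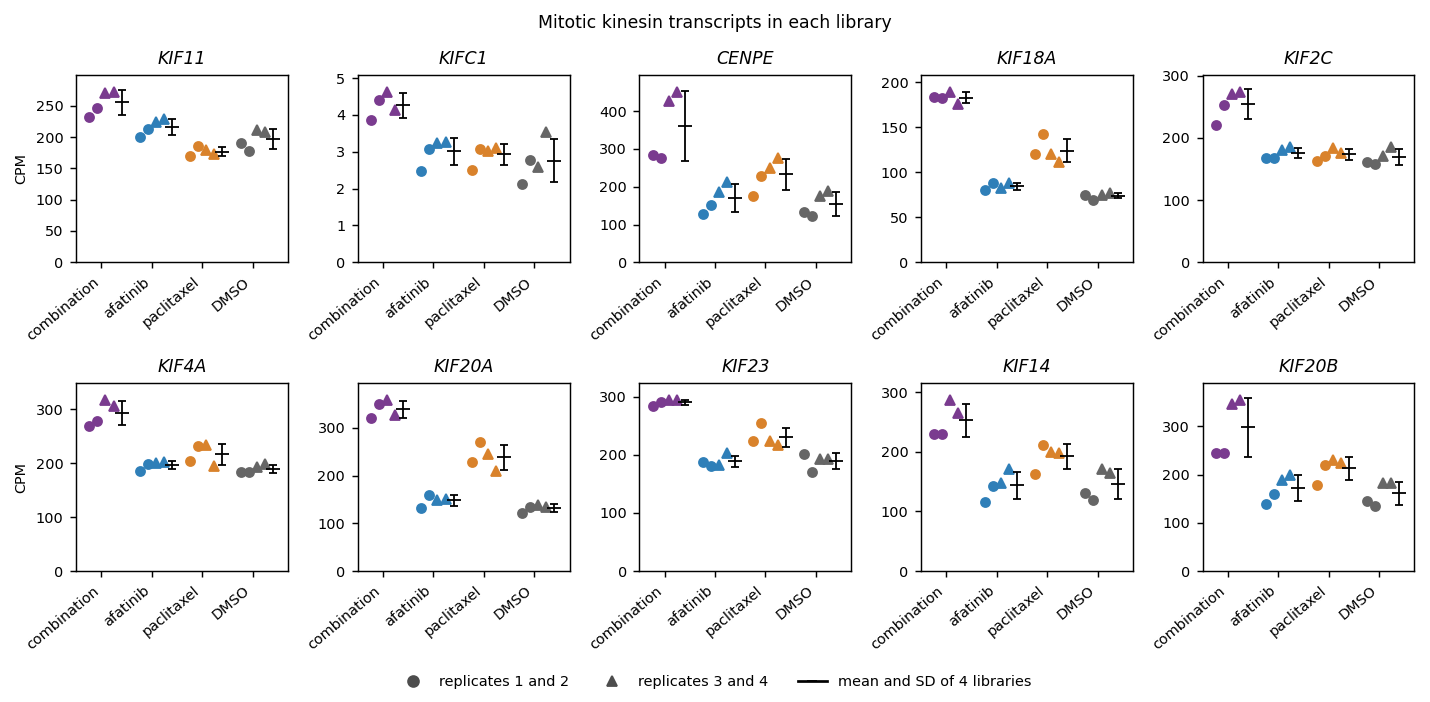
CPM of each mitotic kinesin (1 panel per gene, vertical axis from 0) in every library, with groups from left to right as combination, afatinib, paclitaxel and DMSO. Circles are replicates 1 and 2, triangles replicates 3 and 4, and the bar is the mean ± SD of 4 libraries; the combination libraries are the highest 4 in every panel.

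Among the motors of spindle assembly, KIF11 drives the spindle poles apart by sliding antiparallel microtubules, and KIFC1 is a minus-end-directed motor that focuses and clusters poles. KIF11 (ENSG00000138160, chromosome 10, 92593286 to 92655395 on GRCh38) had 232, 246, 270.3 and 272 CPM in combination libraries 1 to 4, against 191, 178, 211 and 208 CPM in DMSO libraries 1 to 4. It rose least of the members, by a log2 fold change of 0.37 ± 0.05 (SE, adjusted p = 4.88e-06, edgeR). KIFC1 averaged 4.26 ± 0.333 CPM in the combination and 2.76 ± 0.585 CPM in DMSO (SD, n = 4 each) and rose by 0.64 ± 0.12. Its level is uncertain: the symbol stands on 3 identifiers, the one with most reads (ENSG00000204197) is outside the primary assembly annotation, and the primary identifier (ENSG00000237649) held 0 to 3 counts per library.

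The members that act on chromosomes showed a wide span. CENPE, the kinetochore motor that carries chromosomes to the spindle equator (ENSG00000138778, chromosome 4, 103105806 to 103198409), had 284, 277, 428 and 452 CPM in combination libraries 1 to 4, against 133, 122, 175 and 189 CPM in DMSO. It rose by 1.21 ± 0.08 (adjusted p = 9.95e-12, edgeR), with values of 1.14 and 1.28 within the first and second set. KIF18A, which shortens kinetochore microtubules and damps chromosome movements (ENSG00000121621, chromosome 11, 28020620 to 28108308), had 184, 182, 189.6 and 175 CPM in the combination, against 74.8, 69.7, 75.1 and 76.8 CPM in DMSO. It rose by 1.303 ± 0.06 (adjusted p = 7.42e-14, edgeR), and its 4 combination libraries stood close together. KIF2C, a microtubule depolymerase that corrects faulty kinetochore attachments (ENSG00000142945, chromosome 1, 44739818 to 44767767), had 220.4, 252, 270.3 and 274 CPM in the combination, against 161, 158, 171 and 186 CPM in DMSO, a rise of 0.59 ± 0.05. KIF4A, a chromosome-bound motor that also limits the length of midzone microtubules (ENSG00000090889, chromosome X, 70290090 to 70420832), averaged 293 ± 22.0 CPM in the combination and 189.5 ± 7.52 CPM in DMSO (SD, n = 4 each), a rise of 0.63 ± 0.06.

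Among the motors of the midzone and cytokinesis, KIF20A brings the chromosomal passenger complex to the midzone and KIF23 is the motor of centralspindlin, the complex that bundles midzone microtubules. KIF20A (ENSG00000112984, chromosome 5, 138178719 to 138187715) had 321, 351, 358 and 328 CPM in combination libraries 1 to 4, against 121, 135, 138 and 135 CPM in DMSO. It rose most of the members, by 1.36 ± 0.07 (adjusted p = 4.24e-13, edgeR; 1.40 and 1.33 within the sets), and stood at place 179 of 17991 when tested genes were ordered from the highest log2 fold change. KIF23 (chromosome 15, 69414246 to 69448427) averaged 290.3 ± 4.96 CPM in the combination and 189.5 ± 13.6 CPM in DMSO (SD, n = 4 each), a rise of 0.62 ± 0.06. KIF14, a midbody motor that binds citron kinase (chromosome 1, 200551497 to 200620734), had 230.0, 229.8, 286 and 265 CPM in the combination, against 131, 119, 171 and 164 CPM in DMSO, and rose by 0.80 ± 0.08. KIF20B, which acts at the midbody late in cytokinesis (chromosome 10, 89701610 to 89774939), rose by 0.88 ± 0.07, with 246, 245, 347 and 354 CPM in the combination and 145, 135, 182 and 182 CPM in DMSO. The groups did not overlap for either gene, although both stood higher in replicates 3 and 4 of each group.

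**Figure D2:**
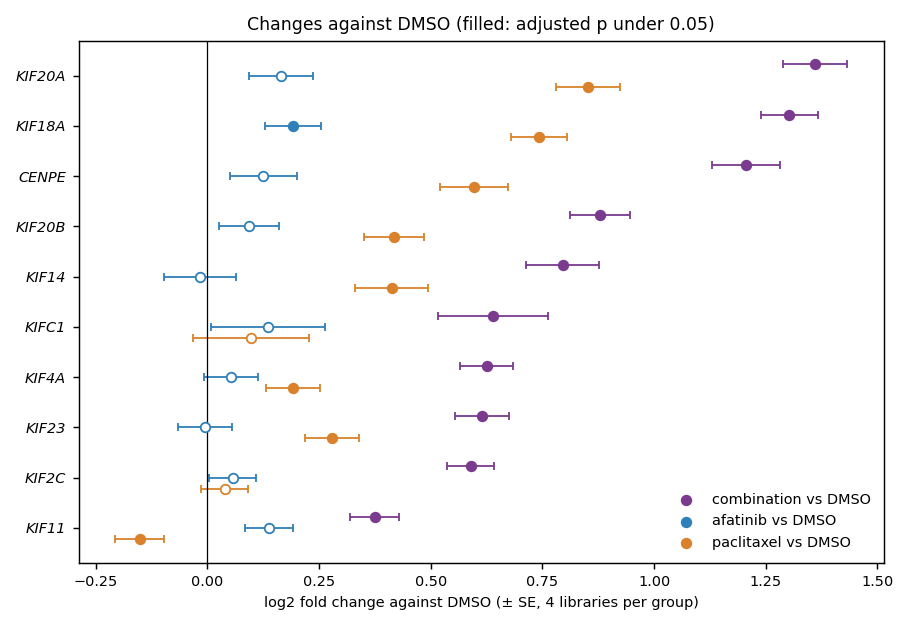
Log2 fold change ± SE of each member against DMSO (horizontal axis), for the combination, afatinib and paclitaxel, with 4 libraries per group and genes ordered by the combination. Filled points passed an adjusted p under 0.05; all 10 combination values are filled, from 0.37 to 1.36, while 1 afatinib and 8 paclitaxel values are.

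All members rose together in the combination, and their promoters were searched for the letters of elements known from late cell cycle genes. The cell cycle gene homology region (CHR) is a short element near the start of such genes, and CCAAT boxes are often found upstream of it. The window ran from 250 bases before to 50 after the RefSeq start (GRCh38.p14), both strands were read, and all 10 members had an entry. TTTGAA occurred in 7 of 10 members and in 15.2% of 35116 promoters, and TTTAAA, which reads the same on both strands, in 5 of 10 members and in 12.2% of all promoters. Each member held one or the other, as did 24% of all promoters. CCAAT occurred in 8 of 10 members and in 34.6% of all promoters. The sequences below are the 100 bases before the start of the 3 members with the highest change in the combination and of KIF11, the lowest. Capitals mark TTTGAA or TTTAAA on either strand.
KIF20A (chr5:138179012-138179111, plus strand): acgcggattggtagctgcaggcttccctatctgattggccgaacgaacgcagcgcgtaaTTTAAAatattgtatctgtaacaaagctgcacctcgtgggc
KIF18A (chr11:28108157-28108256, minus strand): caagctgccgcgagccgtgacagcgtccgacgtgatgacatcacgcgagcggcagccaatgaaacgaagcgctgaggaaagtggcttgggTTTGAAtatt
CENPE (chr4:103198344-103198443, minus strand): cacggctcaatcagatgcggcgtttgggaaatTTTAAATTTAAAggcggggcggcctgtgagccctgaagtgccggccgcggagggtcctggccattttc
KIF11 (chr10:92593030-92593129, plus strand): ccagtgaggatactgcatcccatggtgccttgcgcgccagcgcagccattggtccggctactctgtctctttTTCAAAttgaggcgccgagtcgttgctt

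TTTGAA or TTTAAA lay in the 100 bases before the start in each member printed above. The share of all promoters with these letters in those 100 bases was not computed. In KIFC1, KIF14 and KIF20B TTTGAA lay after the start. In KIF20A TTTAAA stood at bases −41 to −36 from the start, with CCAAT read on the other strand at −67 to −63 and −94 to −90. In KIF18A TTTGAA stood at −10 to −5, with CCAAT at −45 to −41. In CENPE TTTAAA occurred at −195 to −190, −68 to −63 and −62 to −57, and no CCAAT was in the window. In KIF11 TTTGAA was read on the other strand at −28 to −23, with CCAAT on that strand at −53 to −49. In KIF2C TTTAAA spanned the start and no CCAAT was in the window. A match of letters is a description and was not tested for binding.

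Paclitaxel alone divided the members. KIF20A, KIF18A, CENPE, KIF20B, KIF14, KIF23 and KIF4A rose, KIF11 fell, and KIF2C and KIFC1 did not pass, so that 7 of 10 rose and 1 fell. Of all tested genes 20.5% passed, 8.65% as higher and 11.9% as lower, and the members' median log2 fold change was 0.35 against −0.000868 over all tested genes. KIF20A had 228, 271, 245 and 209 CPM in paclitaxel libraries 1 to 4, against 121, 135, 138 and 135 CPM in DMSO, a rise of 0.85 ± 0.07 (adjusted p = 7.57e-09, edgeR; 0.97 and 0.74 within the sets). KIF18A had 121, 142, 121 and 112 CPM with paclitaxel, against 74.8, 69.7, 75.1 and 76.8 CPM in DMSO, a rise of 0.74 ± 0.06 (adjusted p = 7.57e-09, edgeR; 0.87 and 0.62 within the sets). For both genes every paclitaxel library exceeded every DMSO library. CENPE rose by 0.60 ± 0.08, with 176, 228, 251 and 275 CPM with paclitaxel against 133, 122, 175 and 189 CPM in DMSO, so paclitaxel replicate 1 lay below DMSO replicate 4 and level with DMSO replicate 3. KIF20B rose by 0.42 ± 0.07, KIF14 by 0.41 ± 0.08 (0.59 and 0.24 within the sets), KIF23 by 0.28 ± 0.06 and KIF4A by 0.19 ± 0.06.

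KIF11 had 169, 185, 179 and 173 CPM with paclitaxel, against 191, 178, 211 and 208 CPM in DMSO. It fell by 0.15 ± 0.05 on the log2 scale (adjusted p = 0.0485, edgeR; −0.05 and −0.24 within the sets), and the groups overlapped, since paclitaxel replicates 2 and 3 lay above DMSO replicate 2. That call remained in only 3 of the 16 fits that each left out 1 library (combination replicate 4, DMSO replicate 2 or paclitaxel replicate 2), with adjusted p from 0.0131 to 0.172, the highest without paclitaxel replicate 4, and was lost in a fit of only the groups compared (0.106), without the concentration term (0.438) and within each set (0.697 and 0.0962). The call for KIF4A (adjusted p = 0.0234) was lost without paclitaxel replicate 2 (0.107) or 3 (0.0833), within 0.00296 to 0.107 over the 16 leave-outs. It was also lost with log2 concentration as a covariate (0.106), with no filter on low counts (0.0754), with only the groups compared (0.0562) and within replicates 3 and 4 (0.444). KIF2C averaged 173 ± 8.29 CPM with paclitaxel and 169 ± 12.6 CPM in DMSO (SD, n = 4 each), a difference of 0.04 ± 0.05 (adjusted p = 0.661, edgeR). KIFC1 differed by 0.10 ± 0.13 (adjusted p = 0.654), at 2.52 to 3.11 CPM with paclitaxel and 2.13 to 3.53 CPM in DMSO. Without the concentration term 2 members, KIF20A and KIF18A, passed, both higher. On the authors' concentration-corrected log2 values KIF20A and KIF18A passed as higher and KIF11 as lower. That correction did not include the treatment.

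Afatinib alone left most members near DMSO. KIF18A alone passed, with 80.3, 88.3, 82.1 and 87.7 CPM with afatinib, against 74.8, 69.7, 75.1 and 76.8 CPM in DMSO, a rise of 0.19 ± 0.06 (adjusted p = 0.0327, edgeR). Its groups did not overlap, yet the call was lost without afatinib replicate 2 (adjusted p = 0.0955), 3 (0.0542) or 4 (0.110) or DMSO replicate 1 (0.0662) or 2 (0.121), within a range of 0.0124 to 0.121 over the 16 leave-outs. It was also lost without the concentration term (0.286), with log2 concentration as a covariate (0.0748), within replicates 1 and 2 (0.105), within replicates 3 and 4 (0.318) and on the authors' corrected values (0.735). Of all tested genes 19.1% passed, 9.00% as higher and 10.1% as lower, so 1 of 10 members is near that share. The other differences ran from −0.02 ± 0.08 (KIF14) to 0.16 ± 0.07 (KIF20A, adjusted p = 0.109). KIF20A averaged 148 ± 11.5 CPM with afatinib and 132 ± 7.59 CPM in DMSO (SD, n = 4 each), and it passed in the fit blocked by replicate number (adjusted p = 0.0288, within 0.0288 to 0.864 over all alternatives) and without afatinib replicate 1 (0.0417). KIF11 averaged 216 ± 12.7 CPM with afatinib and 197 ± 15.3 CPM in DMSO, a difference of 0.14 ± 0.05 (adjusted p = 0.0756).

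Adding a drug to the other was then compared with that other drug alone. Every member was higher in the combination than with afatinib, by 0.24 ± 0.05 (KIF11, adjusted p = 0.00178, edgeR) to 1.196 ± 0.07 (KIF20A, 9.64e-12). Every member was also higher in the combination than with paclitaxel, and here the span was narrow, from 0.34 ± 0.06 (KIF23, adjusted p = 0.000215) to 0.61 ± 0.07 (CENPE, 2.55e-06). In both comparisons no combination library overlapped a library of the single drug for any member. Here too the share of all tested genes without overlap was not computed. Against afatinib 27.4% of all tested genes passed, 13.1% as higher, and against paclitaxel 24.2%, 12.6% as higher. KIF2C, at 173 ± 8.29 CPM with paclitaxel, was at 254 ± 24.6 CPM in the combination (SD, n = 4 each), a rise of 0.55 ± 0.05 over paclitaxel (adjusted p = 5.94e-08). KIF11 averaged 255 ± 19.7 CPM in the combination and 177 ± 6.94 CPM with paclitaxel (SD, n = 4 each), and rose by 0.53 ± 0.05 over paclitaxel (1.82e-07). Without the concentration term the counts were 8 of 10 against afatinib and 6 of 10 against paclitaxel, all higher.

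The title of the series names synthetic lethality of the drug pair, and the interaction sets the combination against the sum of both single-drug changes. All 10 members had a positive interaction value, from 0.34 ± 0.09 (KIF23) to 0.49 ± 0.07 (KIF2C) on the log2 scale, with a median of 0.38 against 0.0118 over all tested genes. KIF2C (adjusted p = 0.00168, edgeR), KIF11 (0.39 ± 0.08, 0.0159), CENPE (0.48 ± 0.11, 0.0313), KIF4A (0.38 ± 0.08, 0.0313) and KIF18A (0.37 ± 0.09, 0.0459) passed, 5 of 10, where 0.884% of all tested genes passed, 0.389% as higher. KIF23 (adjusted p = 0.0522), KIF20B (0.0621), KIF14 (0.102), KIF20A (0.106) and KIFC1 (0.332) did not. For KIF2C, changes of 0.06 ± 0.05 with afatinib and 0.04 ± 0.05 with paclitaxel stood beside one of 0.59 ± 0.05 in the combination. For KIF20A, single-drug changes of 0.16 and 0.85 summed to 1.02, against 1.36 in the combination.

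**Figure D3:**
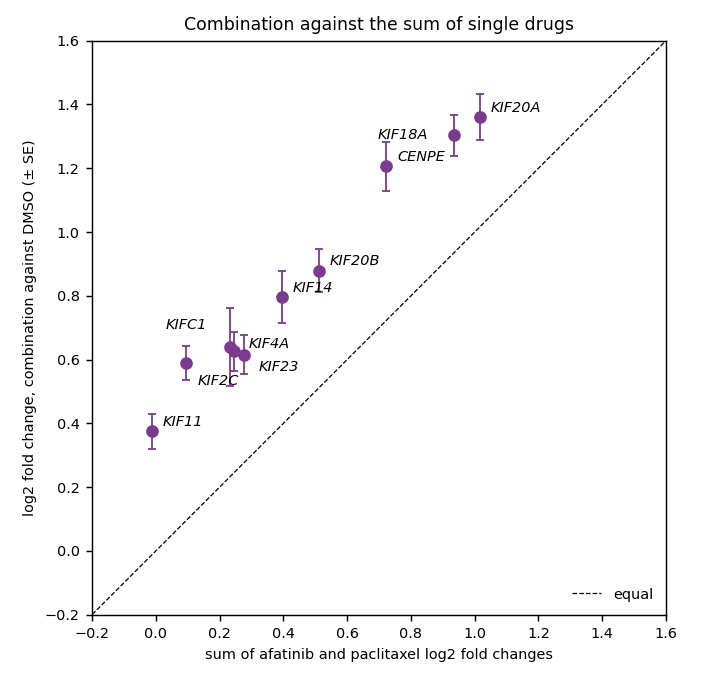
Log2 fold change of each member in the combination against DMSO (vertical axis, ± SE) plotted over the sum of its afatinib and paclitaxel changes (horizontal axis), with 4 libraries per group. All 10 points lie above the dashed line of equal values. The bars cover the combination change only, and the SE of the distance from the line is larger (for KIFC1 0.18 against 0.12). Both axes use the same DMSO libraries, so the points' alignment is partly built in.

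The interaction count was the least stable of the comparisons. It was 9 of 10 with the replicate number as a block, 9 with DESeq2, 2 with log2 concentration as a covariate and 0 without the concentration term, all of them higher. It was 0 within replicates 1 and 2 and 0 within replicates 3 and 4, where the values were 0.19 to 0.41 and 0.41 to 0.62. Over all tested genes the interaction called 159 in the main fit, 501 with the block, 26 with the covariate and 0 without the term. Within each set few of all tested genes passed, so the loss of calls there was not limited to the members. Leaving out 1 library at a time gave 1 to 9 members, namely 1 without paclitaxel replicate 4 and 9 without paclitaxel replicate 2. The count was 2 without afatinib replicate 1 or 3, combination replicate 3, DMSO replicate 4 or paclitaxel replicate 1, and 3 without afatinib replicate 4, combination replicate 2, DMSO replicate 1 or paclitaxel replicate 3. The call for KIF2C held in all 16 of these fits, and that for KIF11 was lost only without paclitaxel replicate 4 (adjusted p = 0.0648, from 0.00244 over the 16). The call for CENPE was lost in 8 of the 16, without combination replicate 3, afatinib replicate 1 or 3, paclitaxel replicate 1, 3 or 4 or DMSO replicate 1 or 4 (adjusted p 0.00211 to 0.0855 over the 16). The call for KIF4A was lost in 8 of the 16, without combination replicate 2 or 3, afatinib replicate 1, 3 or 4, paclitaxel replicate 1 or 4 or DMSO replicate 4 (adjusted p 0.00497 to 0.0944 over the 16). The call for KIF18A was lost in 12 of the 16, without combination replicates 1, 2 or 3, afatinib replicate 1, 2, 3 or 4, paclitaxel replicate 1, 3 or 4 or DMSO replicate 1 or 4 (adjusted p 0.00295 to 0.14 over the 16).

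Levels per kilobase of the deposited gene length allow the members to be ordered against each other. In the combination KIF20A led with 85.7 ± 4.48 CPM per kilobase (SD, n = 4), ahead of KIF2C (69.8 ± 6.75), KIF4A (64.5 ± 4.85) and KIF11 (52.5 ± 4.06). KIF23, KIF20B, KIF18A, CENPE and KIF14 followed between 45.5 and 34.7, each overlapping its neighbour, and KIFC1 was at 1.28 ± 0.0998. In DMSO the order began with KIF2C (46.3 ± 3.46), KIF4A (41.8 ± 1.66) and KIF11 (40.5 ± 3.15), whose neighbours overlapped, and KIF20A came next at 33.4 ± 1.92. KIF18A stood at 39.2 ± 1.26 CPM per kilobase in the combination and 15.9 ± 0.658 in DMSO. With paclitaxel alone KIF20A also led, at 60.2 ± 6.63, while with afatinib alone it was the fourth, at 37.4 ± 2.90. The summed level of the 10 genes was 475 ± 39.3 in the combination, 285 ± 20.2 with afatinib, 338 ± 22.3 with paclitaxel and 268 ± 20.8 in DMSO (CPM per kilobase, SD, n = 4 each).

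**Figure D4:**
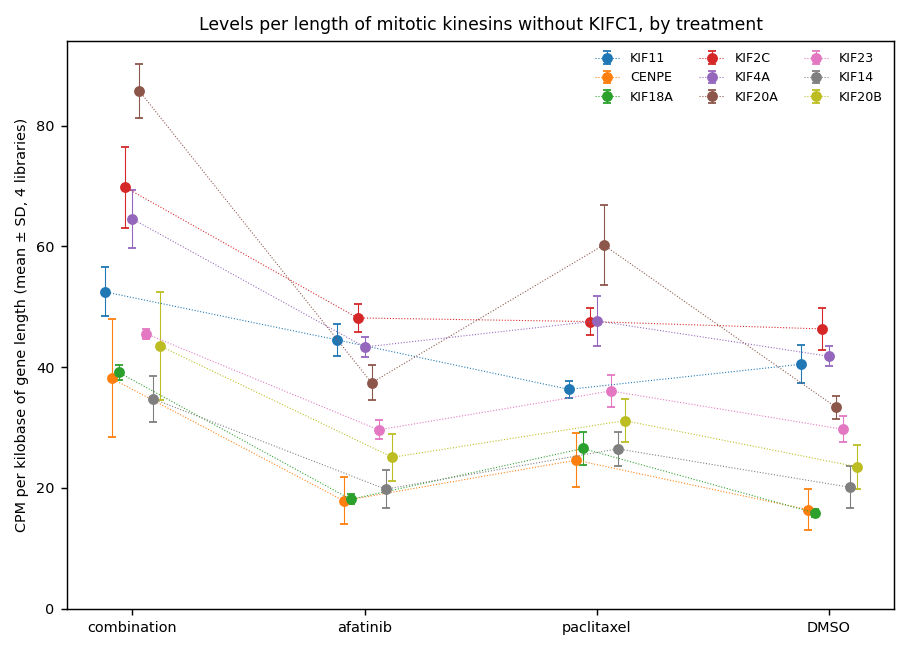
Mean CPM per kilobase of gene length ± SD over 4 libraries for 9 members, with groups from left to right as combination, afatinib, paclitaxel and DMSO (dotted lines join the same gene). KIF20A is the highest in the combination and with paclitaxel, and is below KIF2C, KIF4A and KIF11 with afatinib and in DMSO (KIFC1, whose level is uncertain, is not drawn).

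A ratio of 2 members within a library does not depend on scaling. The ratio of KIF20A to KIF11 counts, a pair chosen after the values were seen as the members with the highest and lowest change, was 1.385, 1.43, 1.32 and 1.203 in combination libraries 1 to 4. It was 0.661, 0.756, 0.661 and 0.6605 with afatinib, 1.35, 1.465, 1.37 and 1.21 with paclitaxel, and 0.633, 0.758, 0.654 and 0.650 in DMSO. All 8 libraries with paclitaxel were above 1 and all 8 without it were below 1. As a share of the summed level per length, KIF20A took 18.1 ± 1.36% in the combination, 13.15 ± 0.866% with afatinib, 17.8 ± 1.27% with paclitaxel and 12.5 ± 0.945% in DMSO (SD, n = 4 each). KIF11 took 11.1 ± 0.159% in the combination, 15.6 ± 0.260% with afatinib, 10.8 ± 0.311% with paclitaxel and 15.1 ± 0.277% in DMSO.

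The members were also compared between the concentration sets. CENPE (0.51 ± 0.05, adjusted p = 5.43e-09, edgeR), KIF20B (0.37 ± 0.05), KIF14 (0.27 ± 0.06), KIF2C (0.15 ± 0.04) and KIF11 (0.12 ± 0.04) were higher in replicates 3 and 4 than in replicates 1 and 2, with all treatments in the fit. Of all tested genes 12508 of 17991 passed in this comparison in either direction, a larger share than the 5 of 10 members. KIF20A (0.00 ± 0.05), KIF23 (0.01 ± 0.04), KIF18A (−0.03 ± 0.04), KIF4A (0.08 ± 0.04) and KIFC1 (0.18 ± 0.09) did not pass. The change with paclitaxel was lower in replicates 3 and 4 than in replicates 1 and 2 for all 10 members, with differences of −0.34 to −0.06 on the log2 scale. A test of that difference in 1 edgeR fit called 0 of 10 members and 0 of all 17991 tested genes. The count of 0 members thus does not show that the change was equal in both sets. For the paclitaxel change KIF14 was the only member with an unadjusted p under 0.05 (0.0393, edgeR). In the same fit the change from paclitaxel to the combination was larger in replicates 3 and 4 for 9 of 10 members. There KIF20B had an unadjusted p of 0.0205 (edgeR, difference 0.32 ± 0.13), and again 0 members passed.

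The rest of the kinesin family was examined through lists of named genes. Of 6 tested further kinesins with mitotic roles, 5 rose in the combination against DMSO, with KIF18B, a kinesin of astral microtubule ends, at 0.88 ± 0.07 and KIF15, which can stand in for KIF11, at 0.51 ± 0.06. With paclitaxel KIF18B alone rose (0.27 ± 0.07), and KIF15 differed by −0.02 ± 0.06. KIF4B, a retrotransposed copy of KIF4A that shares its sequence, is counted among the 5, but with 10 to 50 counts per library its value is uncertain. Among 25 tested kinesins and light chains of interphase transport, 10 rose and 5 fell in the combination, with a median of 0.17. Of all tested genes 18.5% rose and 19.5% fell, so the 5 that fell are near that share. KIF7, the ciliary kinesin of Hedgehog signalling, rose by 0.74 ± 0.06 and KIFAP3, the accessory subunit of the heterotrimeric kinesin-2 motor, fell by 0.61 ± 0.06. With paclitaxel 4 of these 25 rose and 3 fell, against shares of 8.65% and 11.9% of all tested genes.

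Transcripts of proteins that work beside these motors in mitosis were examined in the same way. Of 20 such genes 16 rose and 2 fell in the combination, with a median of 0.63, where 18.5% of all tested genes rose and 19.5% fell. PLK1, the kinase that docks on KIF20A at the midzone, rose by 0.85 ± 0.05, CDCA8, a subunit of the passenger complex, by 0.86 ± 0.06, and NDC80, a microtubule-binding kinetochore subunit, by 0.88 ± 0.06. SPC24 of the NDC80 complex stood lower, at 18.8 ± 1.53 CPM in the combination and 25.7 ± 0.387 CPM in DMSO (SD, n = 4 each). With paclitaxel 10 rose and 4 fell, against shares of 8.65% and 11.9% of all tested genes. AURKA, the spindle pole kinase, rose by 0.72 ± 0.07 with paclitaxel, while the NDC80 complex subunit SPC24 fell by 0.63 ± 0.07 and the passenger complex kinase AURKB by 0.54 ± 0.06. AURKB alone of the 20 rose with afatinib (0.27 ± 0.06), where 9.00% of all tested genes rose. The interaction called 8 of the 20, all higher, where 0.389% of all tested genes passed as higher. This list was not run under the alternatives. Over all tested genes the interaction called 159 in the main fit, 0 without the concentration term and 501 with the replicate block.

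Among genes that mark neighbouring cell cycle phases, the G1/S list fell in the combination, while the G2/M list was mixed, with most genes higher. Of 12 G2/M genes 9 rose and 3 fell in the combination, with the cyclin gene CCNB1 at 1.1003 ± 0.06, CDC20, the activator of the anaphase-promoting complex, at 0.83 ± 0.06, and the mitotic kinase gene CDK1 at −0.59 ± 0.07. The 3 that fell are not far from the 19.5% of all tested genes that fell, while 18.5% rose. With paclitaxel 5 of these 12 rose and 4 fell, against shares of 8.65% and 11.9% of all tested genes. With afatinib the smallest adjusted p of the 12 was 0.14 (CDC20, −0.12 ± 0.06, edgeR). All 14 G1/S genes fell in the combination, with a median of −0.95, and 13 of 14 fell with paclitaxel and 6 of 14 with afatinib. Of all tested genes 19.5%, 11.9% and 10.1% fell in the same order. Among the 14 was E2F1, a factor of S phase entry (−1.51 ± 0.06 in the combination and −0.93 ± 0.06 with paclitaxel, both against DMSO). Of 11 components of the complexes that transcribe or repress late cell cycle genes, 3 rose and 3 fell in the combination, where 18.5% of all tested genes rose and 19.5% fell, so the counts are not far from those shares. The genes with the smallest p included RBBP4, a MuvB core subunit, at −0.39 ± 0.05 and the pocket protein gene RBL2 at 0.41 ± 0.08. The activator gene FOXM1 rose by 0.34 ± 0.07 in the combination and differed by 0.09 ± 0.07 with paclitaxel (adjusted p = 0.367).

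**Figure D5:**
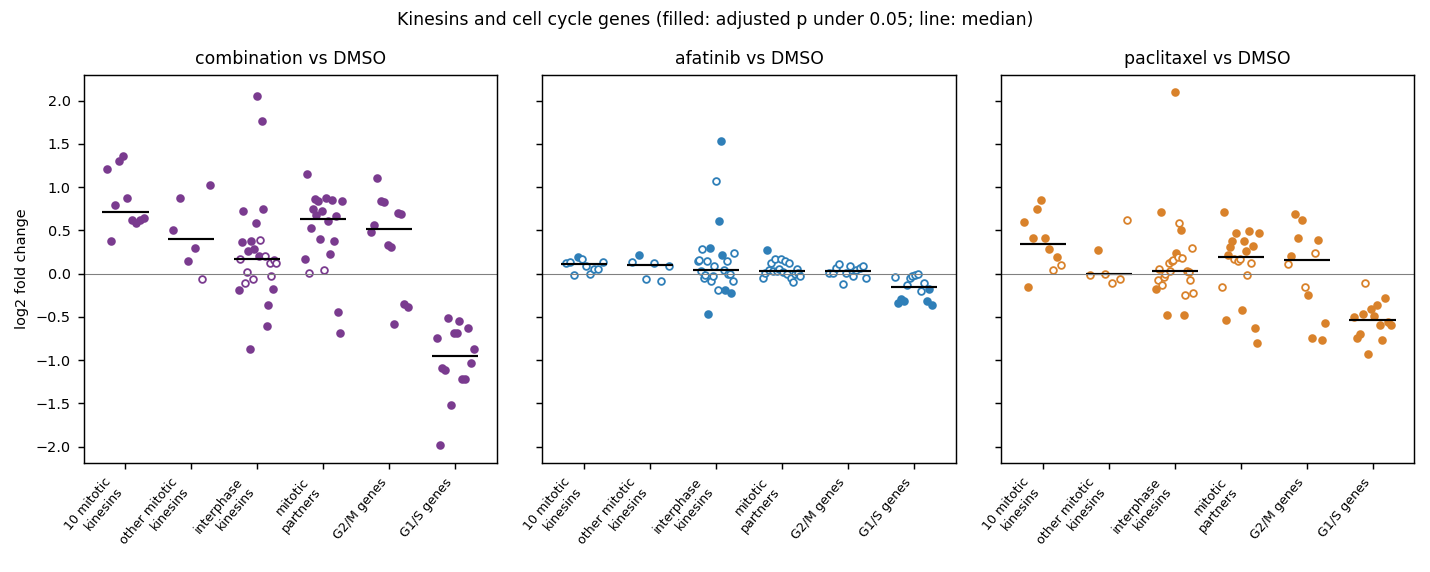
Log2 fold change (vertical axis) of each tested gene in 6 lists, with a panel each for the combination, afatinib and paclitaxel against DMSO, filled where the adjusted p was under 0.05, and with a line at each list's median. In the combination the medians are 0.72 for the 10 mitotic kinesins, 0.17 for interphase kinesins and −0.95 for G1/S genes.

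The genes whose levels followed the members most closely were sought among 9660 genes with an average log2 CPM of at least 3, using levels centred within each concentration set over the 16 libraries, which share treatments and depth. KIF20A was most like CCNB1 (Pearson r = 0.993), followed by GTSE1 (0.991), a microtubule-binding protein of G2, and LMO7 (0.989). KIF18A was most like GTSE1 (0.993), SGOL2 (0.992), the shugoshin that protects centromeric cohesion, and SPAG5 (0.992), a spindle protein. CENPE and KIF20B were both most like CNTRL (0.988 and 0.990), a centrosome component. GTSE1 was among the closest 3 genes for KIF20A, KIF18A, CENPE, KIF23 and KIF14. KIF11 was most like TTF2 (0.971), and KIF2C was most like LIPE (0.962). Between members the values ran from 0.454 (KIF11 with KIF20A) to 0.994 (CENPE with KIF20B).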

How the data were processed

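RNA was sequenced from 16 libraries of MDA-MB-231 cells in 4 groups. The deposited counts are whole numbers of reads per gene; the submitters' processing notes name STAR 2.7.5b, featureCounts, Subread 2.0.1 and hg38. The annotation and strand setting are not given in the sources used here. A second deposited table holds concentration-corrected log2 values, per its name. These values equalled log2 CPM minus a term linear in concentration, to within 6.43e-14 after centring each gene. That table served only as an alternative. The deposited gene length, in bases, was used for levels per kilobase. Rows with no symbol (171) held at most 0.0462% of a library's counts.

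Genes were kept with filterByExpr (minimum count 10, minimum total 15), scaled with TMM and tested by robust quasi-likelihood in edgeR (version 4.0.16, under R 4.3.3), with group and concentration set in 1 fit of all libraries. SEs were derived from the F statistic of each contrast, as |log2 fold change| over √F. Calls are at an adjusted p under 0.05. The common biological coefficient of variation was 7.41%. Alternatives used DESeq2 1.42.0 and limma 3.58.1. Within a group, counts of library pairs gave χ² values per gene between 6.62 and 336 (genes with 20 counts or more), so none was a copy.

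The members, lists and tests were chosen with earlier results of these data known. Named are all members, up to 4 genes per list with the smallest p in the combination or with paclitaxel, and the 3 genes most like a member. Positions come from GENCODE 29, which held 36220 of 37864 identifiers, and promoters from RefSeq. On simulated data for the combination against DMSO (17991 genes), 74% of genes changed 1.3-fold and 100% of those changed 2-fold were called. Each share is of 100 genes, taken from those with at least 100 expected counts, and 18 of 17791 unchanged genes were called. The counts were drawn with the fitted set effect and spread, so this recovery is partly built in. It does not cover the interaction.

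The correlation of centred levels between equally numbered libraries of different groups was 0.367 to 0.704 (24 pairs), all above 0.1. For unequal numbers within a set it was 0.384 to 0.670 (24 pairs), also all above 0.1. The median was 0.59 for equal numbers and 0.496 for unequal numbers within a set, with overlapping ranges. These values follow the set and cannot decide whether equal numbers pair the libraries. The main fits held the set and no pairing by number, which entered only as the alternative with the replicate block.

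A fit of the treatment difference between sets and the within-library ratio were added after the data were seen.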

Additional observations from a re-analysis of the deposited data

Results flagged for a closer look

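For 5 members the change with paclitaxel was larger in the presence of afatinib than in its absence, by a test of the difference itself (the interaction, edgeR). The values on the log2 scale were 0.49 for KIF2C, 0.48 for CENPE, 0.39 for KIF11, 0.38 for KIF4A and 0.37 for KIF18A. For KIF11 the change was 0.24 with afatinib present and −0.15 without it. Of all tested genes 0.884% passed this test. The 5 calls were not stable: the count was 0 of 10 without the concentration term, within either set and on the authors' corrected values, 9 with the replicate block, and 1 to 9 when 1 library was left out. The count over all tested genes moved as well, from 159 in the main fit to 0 without the term and 501 with the block. Few of all tested genes passed within either set or on the authors' values.

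KIFC1 in paclitaxel replicate 1 stood apart from its group, at 2.52 CPM against 3.03 to 3.11 CPM in the other libraries. Its gap was 0.861 of the group's range, above Dixon's critical value at 95% for 4 samples. Over 40 groups tested, chance flags about 1 in 20.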

How the results depend on the processing

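The count of members in the combination against DMSO was 10 under every alternative run. With afatinib it was 0 without the concentration term, with log2 concentration as covariate, within replicates 1 and 2, within replicates 3 and 4 and on the authors' table, and 2 with the replicate block, against 1. With paclitaxel it was 2 without the concentration term, 4 within replicates 3 and 4, 3 on the authors' table, 7 with the covariate or no filter and 6 with only the groups compared, against 8. Against afatinib the combination gave 8 without the term and within replicates 1 and 2, and 9 within replicates 3 and 4, against 10. Against paclitaxel the combination gave 6 without the term and within replicates 1 and 2, and 9 within replicates 3 and 4, against 10. The interaction gave 0 without the term, within either set and on the authors' table, 2 with the covariate, and 9 with the replicate block, with no filter or with DESeq2, against 5. Leaving out 1 library gave 0 to 2 with afatinib, 6 to 8 with paclitaxel, 1 to 9 for the interaction and 10 for the other comparisons. The replicate block changed no member's call other than KIF20A with afatinib (adjusted p = 0.0288) and, in the interaction, KIF20A (0.0123), KIF20B (0.0197), KIF23 (0.0219) and KIF14 (0.0467).

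Signs turned only for changes that had not passed. With afatinib CENPE was at −0.00298 with the covariate and −0.0330 on the authors' table, and KIF20B at −0.0214 on that table. KIF14 was at 0.0556 within replicates 1 and 2, and ran from −0.0676 to 0.0410 when 1 library was left out, being positive without afatinib replicate 1 (0.0410) or 3 (0.0160) and without DMSO replicate 3 (0.0238). KIF23 ran from −0.0549 to 0.0330, being positive without afatinib replicate 2 (0.0160) or 3 (0.0124) and without DMSO replicate 1 (0.0330), 3 (0.00354) or 4 (0.00313). With paclitaxel KIF2C was at −0.0311 with the covariate and −0.0980 on the authors' table, and KIFC1 at −0.0690 on that table. Of the members' values under all alternatives 1403 kept direction and call, 111 lost the call, 21 gained it and 15 turned.

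Over all genes, dropping the term gave 2310 calls in the combination (6830 with it), 380 with afatinib (3432), 625 with paclitaxel (3694), 1143 against afatinib (4935), 768 against paclitaxel (4347) and 0 for the interaction (159). In the same order replicates 3 and 4 gave 3169, 516, 772, 2003, 1299 and 4, and the authors' values gave 4067, 1108, 1148, 2113, 2170 and 2. Replicates 1 and 2 gave 1243 with afatinib, 1798 with paclitaxel, 2533 against afatinib, 1983 against paclitaxel and 3 for the interaction. The interaction gave 501 with the replicate block, 26 with the covariate, 479 with no filter, 367 with DESeq2 and 34 to 278 without 1 library. The cause was not tested. Limiting a fit to the groups compared was not possible for the interaction, which uses all 4. Depth limits mainly KIFC1, with 84 to 224 counts per library.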
